A study of Mus musculus with 8 samples.

Results

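Expression of the mitochondrial ribosomal protein genes was compared between 2 stages of a transplanted mouse skin cancer. The set comprised every gene with a symbol of Mrpl or Mrps followed by a number in the annotation of the array, which gave 73 of the 17097 genes measured, 46 of the large and 27 of the small subunit. They were read by 129 probe sets. Of the protein-coding genes with such symbols in RefSeq, 5 (Mrpl22, Mrpl45, Mrpl51, Mrps18c and Mrps28) were not analysed here. For each gene the probe set with the largest average over 8 arrays was used.

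The mitochondrial ribosome is assembled in the mitochondrial matrix from rRNAs of the mitochondrial genome and from proteins that are all encoded in the nucleus, made in the cytosol and imported. The genes of these proteins are named Mrpl for the large subunit, which forms peptide bonds and holds the exit tunnel, and Mrps for the small subunit, which binds the mRNA and decodes it. The ribosome translates the few mRNAs of the mitochondrial genome, which encode core subunits of the respiratory chain. Symbol and structure do not always match: in solved structures the products of Mrps30 and Mrps18a sit in the large subunit, and that of Mrps36 belongs to a dehydrogenase complex of the citric acid cycle, so the grouping used here is one of names.

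The RNA came from sorted cells of squamous cell carcinomas (SCC) of mouse skin, a tumour of keratinocytes. The tumours arose in K14-HPV16 mice of mixed FVB/C57/Bl6 background, in which the keratin 14 promoter drives genes of human papillomavirus type 16 in basal keratinocytes, either spontaneously or after treatment with DMBA and TPA, a chemical initiator and promoter of skin tumours; which of these applied to which tumour, and the age and sex of the animals, were not given in the sources. Each tumour was grafted into the skin of nude mice, which lack T cells but keep other immune cells, and passaged from host to host as a lineage that went from well differentiated (WD-SCC) to poorly differentiated tumours, which the labels write as PD/S-SCC and which are called PD-SCC here. Suspensions were depleted of haematopoietic and endothelial cells and sorted for CD34 and α6-integrin, surface proteins of a population that the labels call cancer stem cells. There were 4 arrays of WD-SCC and 4 of PD-SCC: 2 of each from lineage OT7, and 1 of each from OT14 and OT15. Each lineage descends from 1 tumour, so a stage difference is measured in 3 independent lineages at most. The arrays are labelled as biological replicates, but nothing says that the pairs of OT7 arrays were taken from different tumours, so p-values cover only the spread between these arrays.

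Values are log2 RMA values. Over all genes the median was 4.12 to 4.17 on WD-SCC arrays and 3.999 to 4.047 on PD-SCC arrays. Arrays of the same stage correlated at 0.909 to 0.979 across genes, which are not independent replicates. As a reference for detection, 15 bacterial control probe sets were taken as background, on the assumption that their transcripts were not added to the samples. The highest of them read 3.82 to 4.37 on WD-SCC and 3.61 to 3.81 on PD-SCC arrays. Of the 73 genes, 59 were above that control on all 8 arrays, and Mrpl47 was above it on none. Keratinocyte markers were low in PD-SCC: Krt5, a basal keratin, read 11.26 ± 0.49 on WD-SCC and 4.16 ± 0.17 on PD-SCC arrays (SD, n = 4), and Krt14 read 10.74 ± 0.38 and 5.73 ± 1.45.

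Windows around the start sites of 65 of the 73 genes were found in the RefSeq promoter table of mouse build GRCm38.p6. They are shown for 6 genes, with the reason for each given below. Each is written 5′ to 3′ on the strand of the gene and ends 1 base before its start. Matches to any of 4 short motifs are in capitals. Mrpl18, Mrpl30 and Mrps30 are the first because they rose in PD-SCC in every lineage. Mrpl18 lies on the minus strand, at chr17:12916092-12916291, and Mrpl30 on the plus strand, at chr1:37890412-37890476, where the stretch covers all the bases between its start and that of Mitd1 on the other strand. Mrps30 lies on the minus strand at chr13:118387253-118387452.
Mrpl18: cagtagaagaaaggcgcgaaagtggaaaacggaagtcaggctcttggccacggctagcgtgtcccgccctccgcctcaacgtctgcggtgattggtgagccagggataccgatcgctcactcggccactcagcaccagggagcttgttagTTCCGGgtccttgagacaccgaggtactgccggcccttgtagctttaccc
Mrpl30: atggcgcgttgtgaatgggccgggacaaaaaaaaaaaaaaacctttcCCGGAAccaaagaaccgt
Mrps30: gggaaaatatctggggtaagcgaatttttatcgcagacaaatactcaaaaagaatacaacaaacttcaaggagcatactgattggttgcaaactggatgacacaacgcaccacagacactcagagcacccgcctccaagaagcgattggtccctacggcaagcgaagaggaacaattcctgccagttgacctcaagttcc
Mrpl17 is shown because its stage difference had opposite signs in the lineages; it lies on the minus strand at chr7:105811088-105811287. Mrps12 (minus strand, chr7:28741822-28741967) and Mrps11 (plus strand, chr7:78783090-78783130) share their start region with another gene of mitochondrial translation, Sars2 and Mrpl46 respectively, and the stretches hold the bases between the paired starts.
Mrpl17: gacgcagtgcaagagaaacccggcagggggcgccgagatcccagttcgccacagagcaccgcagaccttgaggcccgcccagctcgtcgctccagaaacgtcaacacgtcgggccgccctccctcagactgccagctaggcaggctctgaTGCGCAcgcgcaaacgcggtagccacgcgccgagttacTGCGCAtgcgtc
Mrps12: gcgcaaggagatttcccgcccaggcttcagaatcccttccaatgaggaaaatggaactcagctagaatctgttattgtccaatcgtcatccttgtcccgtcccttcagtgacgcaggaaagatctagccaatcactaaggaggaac
Mrps11: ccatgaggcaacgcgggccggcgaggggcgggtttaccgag
The capitals in Mrpl18 and Mrpl30 mark the ETS core CCGGAA or its reverse complement TTCCGG, the core bound by GABP and other ETS factors; its first base lay 50 bases before the start in Mrpl18 and 18 bases before it in Mrpl30. The capitals in Mrpl17 mark the palindrome TGCGCA, a half-site of nuclear respiratory factor 1 (NRF1), 50 and 12 bases before the start. The stretches of Mrps30, Mrps12 and Mrps11 held no match to these 2 motifs, to the YY1 core AAGATGG or to the E-box CACGTG; farther from the start, within 250 bases, Mrps12 and Mrps11 each had a match to the YY1 core.

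The main comparison asked how these genes differed between the stages within lineages. In PD-SCC 11 of the 73 (15.1%) rose and none fell (limma, two-sided, lineage as a block; adjusted p under 0.05 after Benjamini-Hochberg adjustment over all genes), where 7.78% of all genes rose and 4.81% fell. At an unadjusted p under 0.05, 38 were higher and 1 (Mrpl54) was lower, against 17.2% and 14.7% of all genes. The median log2 difference was 0.67 over the 73 genes and -0.06 over all genes, and 64 of the 73 differences were above 0, against 42.2% of all genes. Both subunits had a median of 0.67, with 6 of 46 large and 5 of 27 small subunit genes past the threshold. All 11 genes that rose had 1 sign in every lineage. With other scalings the direction of the set was the same: its median was 0.52 after scaling to the 75th percentile (-0.21 over all genes) and 0.46 with cyclic loess (-0.04), with 10 and 5 genes higher and none lower. The split over all genes did change, from 1331 higher and 823 lower to 1150 and 1205 after scaling to the 75th percentile and to 799 and 930 with cyclic loess. In arrays of sorted cell populations, a change in the share of cells that express a gene and a change in the RNA per cell cannot be told apart.

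The size of the background depends on how bright the genes are. Among the 5983 genes with a mean of at least 5 over the 8 arrays, 18.2% rose in the same fit, 8.26% fell and the median difference was 0.35. Of the 61 mitochondrial ribosomal protein genes in that range, 8 (13.1%) rose, with a median of 0.78 and 88.5% of differences above 0, against 65.4% of the brighter genes. When these genes were fitted and adjusted among themselves, a choice made after seeing the data, 19 of the 61 (31.1%) rose, against 22.7% of the 5983. Which share of calls was larger thus depended on the genes adjusted over, while the median and the share of positive differences of the set were above those of the brighter genes; none of these differences was tested.

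**Figure D1:**
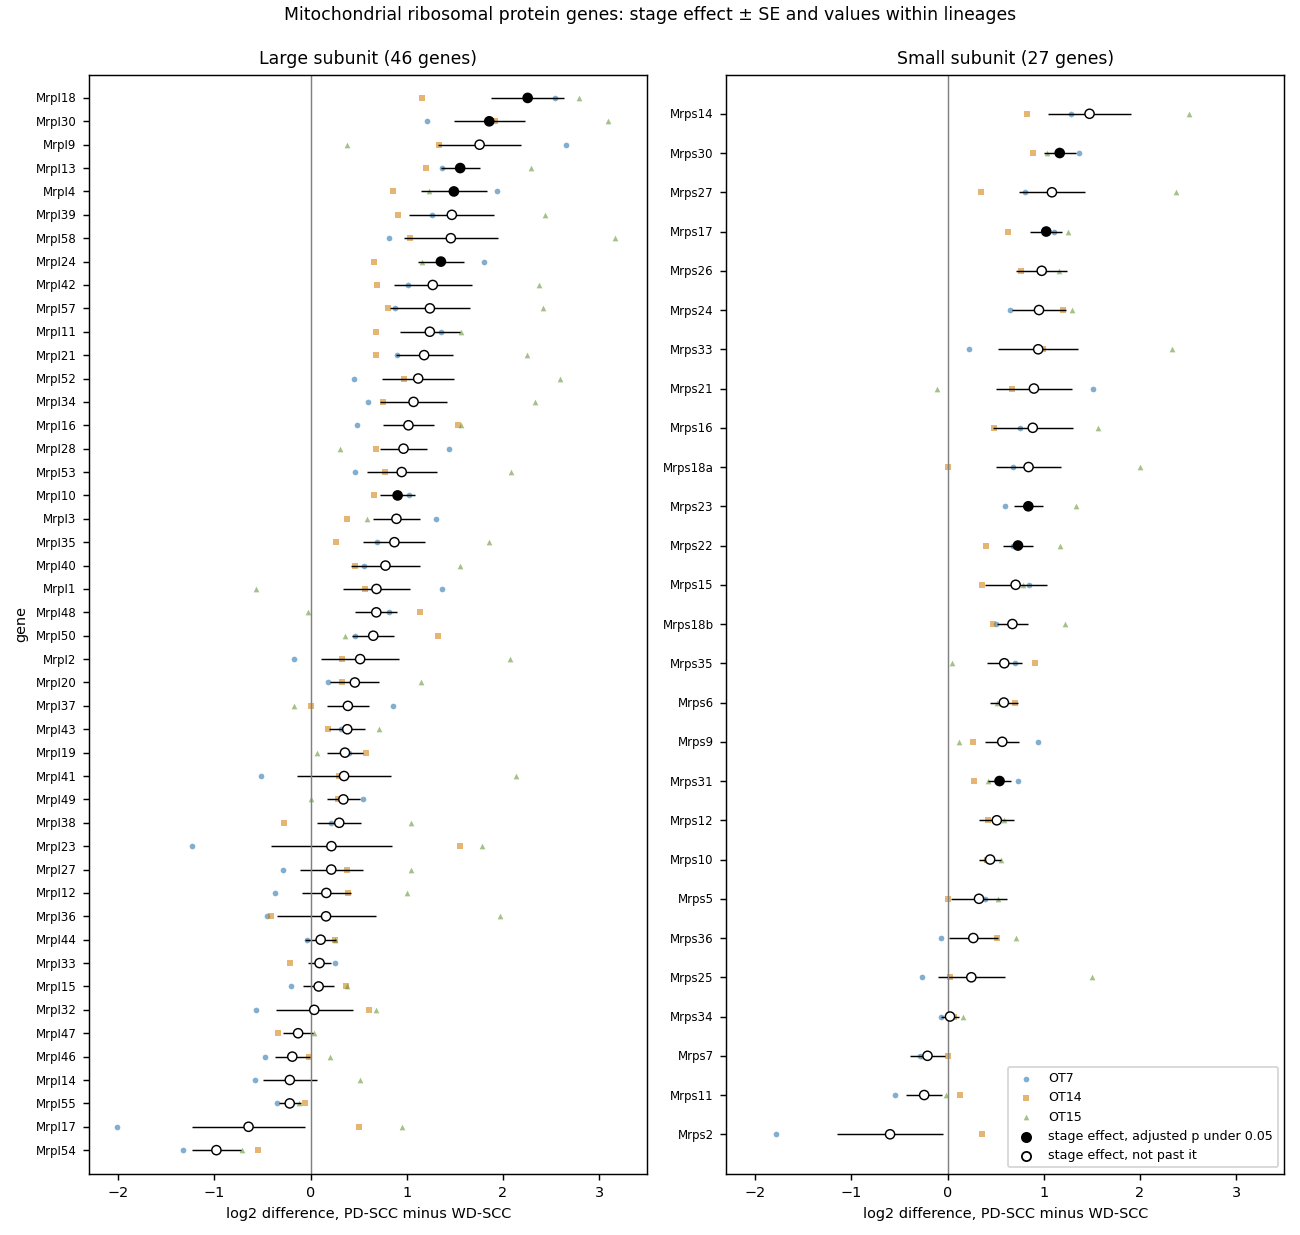
Log2 difference (PD-SCC minus WD-SCC, horizontal axis) of each of the 73 genes, ordered within the large and the small subunit. Large circles are stage effects ± SE from the fit with lineage as a block, filled where the adjusted p was under 0.05 (11 genes), and small symbols are the differences within OT7, OT14 and OT15. Most circles lie to the right of 0 (64 of 73), and OT15 triangles are often the outermost symbols.

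Among the large subunit genes that rose, Mrpl18 had the largest difference. Its product lies in the central protuberance of the large subunit. WD-SCC arrays read 4.91 and 6.13 (OT7), 6.04 (OT14) and 4.69 (OT15), and PD-SCC arrays read 7.99 and 8.12 (OT7), 7.20 (OT14) and 7.48 (OT15). Every PD-SCC array was above every WD-SCC array. The log2 difference was 2.26 ± 0.38 (SE), or 4.78-fold (adjusted p = 0.0197, limma), and the lineage differences were 2.54, 1.16 and 2.79 in OT7, OT14 and OT15.

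Mrpl30, whose product is a conserved protein of the large subunit, read 6.32 and 7.05 (OT7), 5.50 (OT14) and 4.57 (OT15) in WD-SCC and 7.70 and 8.10 (OT7), 7.42 (OT14) and 7.66 (OT15) in PD-SCC. The WD-SCC arrays were spread over more than 2 log2 units and the PD-SCC arrays over less than 1, and the stages did not overlap. The difference was 1.86 ± 0.37 (adjusted p = 0.0320), smallest in OT7 and largest in OT15 (1.21, 1.92 and 3.09 in OT7, OT14 and OT15).

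For Mrpl13, also a conserved large subunit protein gene, WD-SCC values were 5.33 and 5.51 (OT7), 5.17 (OT14) and 3.83 (OT15) and PD-SCC values 6.90 and 6.67 (OT7), 6.37 (OT14) and 6.12 (OT15). OT15 was the lowest lineage at both stages. The gene had the smallest adjusted p of the set (0.0106, limma), with a difference of 1.56 ± 0.20. The OT15 WD-SCC array was at or under the bacterial control, so the OT15 difference of 2.29 is measured from background.

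Mrpl4 and Mrpl24 encode proteins at the exit tunnel through which the new peptide leaves. Mrpl4 read 5.77 and 7.09 (OT7), 7.31 (OT14) and 7.04 (OT15) in WD-SCC and 8.32 and 8.40 (OT7), 8.16 (OT14) and 8.27 (OT15) in PD-SCC. The SD was 0.10 in PD-SCC and 0.70 in WD-SCC, the stages did not overlap, and the difference was 1.49 ± 0.35 (adjusted p = 0.0464). Mrpl24 read 5.46 and 5.95 (OT7), 6.27 (OT14) and 5.40 (OT15) in WD-SCC and 7.51 and 7.50 (OT7), 6.93 (OT14) and 6.56 (OT15) in PD-SCC. Again no WD-SCC array reached a PD-SCC array, with a difference of 1.36 ± 0.24 (adjusted p = 0.0225). Mrpl10, which encodes a protein at the base of the stalk that recruits translation factors, went from 5.36 ± 0.36 to 6.26 ± 0.33 (mean ± SD, n = 4). It was the only one of the 11 whose stages overlapped, because the OT14 WD-SCC array (5.88) was above the OT7 PD-SCC array numbered 1 (5.87), although within each lineage PD-SCC was higher (1.02, 0.66 and 0.91 in OT7, OT14 and OT15).

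Among the small subunit genes that rose, Mrps30 had the largest difference. WD-SCC arrays read 4.10 and 3.79 (OT7), 4.32 (OT14) and 4.12 (OT15), and PD-SCC arrays read 5.55 and 5.08 (OT7), 5.22 (OT14) and 5.15 (OT15). The stages did not overlap, and the 3 lineages differed by similar amounts (1.37, 0.89 and 1.03 in OT7, OT14 and OT15; difference 1.16 ± 0.17, adjusted p = 0.0129). Only 1 of the 4 WD-SCC arrays was above the bacterial control, so the WD-SCC level is near background.

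Mrps17, a conserved small subunit protein gene, went from 6.27 ± 0.26 to 7.30 ± 0.29 (difference 1.02 ± 0.17, adjusted p = 0.0184), and its lineage differences were 1.11, 0.63 and 1.25 in OT7, OT14 and OT15. Mrps22 and Mrps23 belong to the proteins that the mitochondrial small subunit has and the bacterial one lacks. Mrps23 went from 5.21 ± 0.49 to 6.05 ± 0.19 (difference 0.84, adjusted p = 0.0243) and Mrps22 from 4.33 ± 0.21 to 5.06 ± 0.30 (difference 0.73, adjusted p = 0.0401). For Mrps22, 3 of the 4 WD-SCC arrays were above the bacterial control. Mrps31, another protein of the small subunit, read 3.79 and 3.84 (OT7), 4.04 (OT14) and 3.996 (OT15) in WD-SCC and 4.49 and 4.59 (OT7), 4.31 (OT14) and 4.42 (OT15) in PD-SCC. It was the smallest change past the threshold (0.54 ± 0.12, adjusted p = 0.0390), and 3 of its WD-SCC arrays were at or under the bacterial control.

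**Figure D2:**
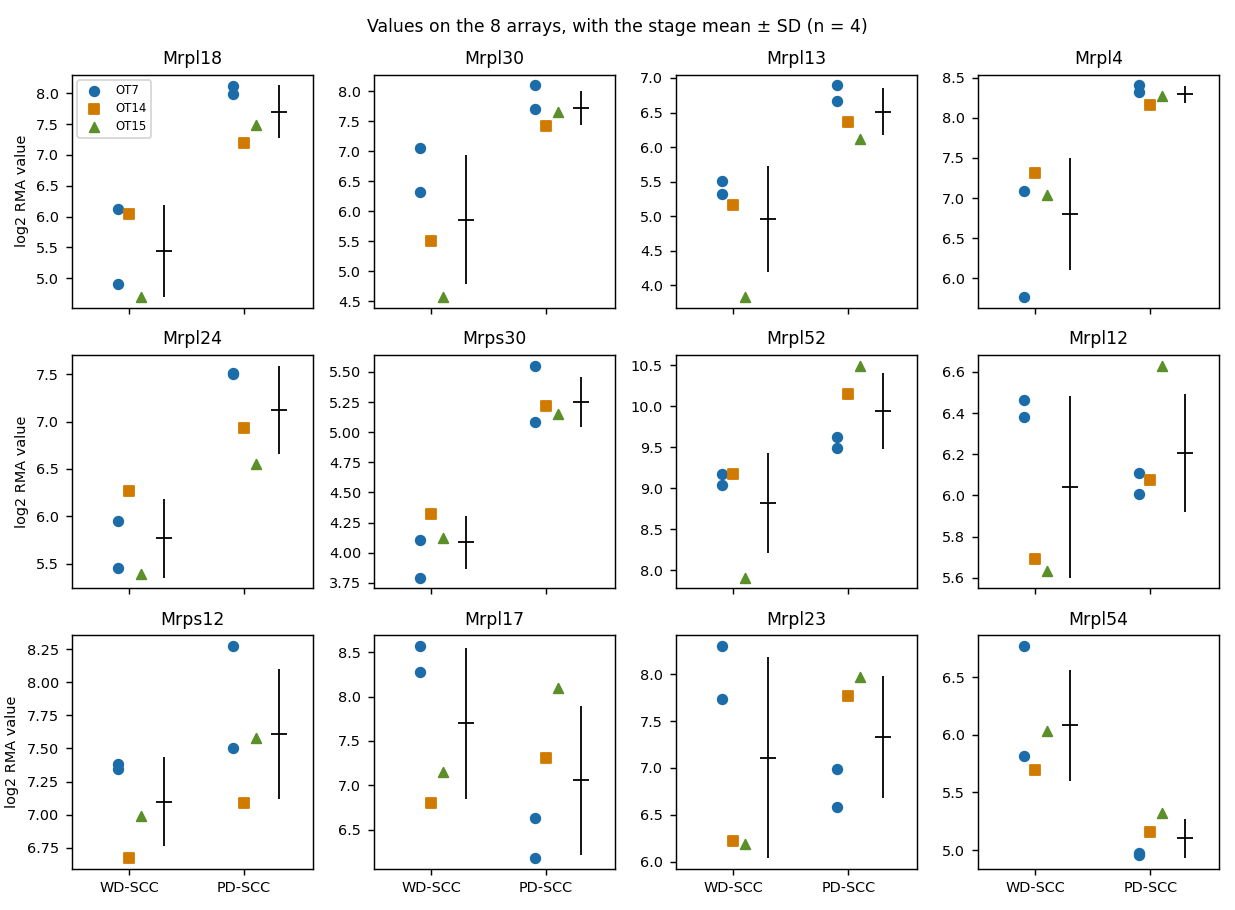
Log2 RMA value (vertical axis, own scale in each panel) of 12 genes on each array by stage, with OT7 as circles, OT14 as squares and OT15 as triangles; the black bar is the stage mean ± SD (n = 4). The first 6 panels hold the largest rises, in which no WD-SCC point reaches a PD-SCC point; Mrpl17 and Mrpl23 have the OT7 points on the opposite side from the others, and Mrpl54 is lower in PD-SCC in every lineage.

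How many genes were called depended on the fit. With the 2 OT7 arrays of each stage averaged, which leaves 3 pairs, none of the 73 passed (smallest adjusted p = 0.0607, limma, Mrps30), and 1.18% of all genes rose and 1.16% fell. At an unadjusted p under 0.05, 34 of the 73 were higher and 1 was lower in that fit, against 13.5% and 9.79% of all genes, and the median difference was 0.69. When the OT7 PD-SCC array numbered 1 was left out, 3 genes rose (4.11%, against 3.21% of all genes), and when the one numbered 2 was, 4 rose (5.48%, against 3.24%). With OT14 left out 5 rose (6.85%, against 4.52%), all among the 11; with OT15 left out 5 rose (6.85%, against 4.92%), of which 3 were among the 11. These shares were near the background. Mrpl54 fell past the threshold under 7 alternatives. Keeping genes whose brighter stage averaged at least 6, which left 49 of the set, gave 22, or 44.9%, against 28.4% of all 4734 genes kept, and averaging a gene's probe sets gave 20 of 73 against 8.24% of all genes. Of the 6 largest rises, Mrpl13 and Mrps30 lost their call under 1 alternative each, the averaged OT7 arrays, and all 6 kept a positive difference under every alternative run on them.

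Most single calls rested on all arrays being present. With 1 array left out, Mrpl13 and Mrps30 stayed past the threshold whichever array it was. Mrpl18 missed it without OT15 or either OT7 PD-SCC array (adjusted p 0.0641 to 0.0682, limma), Mrps17 without OT15 or the OT7 WD-SCC array numbered 2 (0.0556 to 0.0597), and Mrpl24 without OT15, either OT7 PD-SCC array or the OT7 WD-SCC array numbered 2 (0.0586 to 0.0740). Mrps23 missed it without OT14, either OT7 PD-SCC array or the OT7 WD-SCC array with no number (0.0514 to 0.0712). Mrpl30 missed it without any array other than the OT7 WD-SCC array numbered 2 (0.0525 to 0.0903), Mrpl4 without any other than the OT7 WD-SCC array with no number (0.0712 to 0.128) and Mrpl10 without any other than the OT7 PD-SCC array numbered 2 (0.0520 to 0.0856). Mrps22 (0.0611 to 0.118) and Mrps31 (0.0535 to 0.119) missed it whichever array was left out. Each of these genes had a positive difference in all of these fits.

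The threshold did not separate large from small differences. Just inside it lay Mrps31, Mrps22 and Mrpl4 (adjusted p = 0.0390 to 0.0464), and just outside it Mrpl9 (1.76 ± 0.43, adjusted p = 0.0518), Mrps18b (0.67 ± 0.16, 0.0526) and Mrpl21 (1.18 ± 0.30, 0.0562). Of the 19 genes with a difference of at least 2-fold, 7 passed. The stages did not overlap in 21 genes with PD-SCC higher (28.8%, against 10.8% of all genes) and in 1 gene with PD-SCC lower (1.37%, against 13.3%). The shares without overlap were not counted among brighter genes alone. Besides 10 of the 11 genes past the threshold, the 21 held 11 genes with adjusted p of 0.0518 to 0.151 and differences of 0.57 to 1.76.

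Mrpl9 had the largest difference of these 11. Its WD-SCC arrays were close together at 5.39 and 5.47 (OT7), 5.56 (OT14) and 5.49 (OT15), and its PD-SCC arrays ran from 5.86 to 8.40. Its differences were 2.66, 1.33 and 0.38 in OT7, OT14 and OT15 (unadjusted p of a difference between lineages 0.0162, adjusted p = 0.292). Mrpl58, which encodes a ribosome-bound peptidyl-tRNA hydrolase that rescues stalled ribosomes, had the opposite order, at 0.81, 1.04 and 3.17 in OT7, OT14 and OT15 (5.42 ± 0.82 in WD-SCC, 6.88 ± 0.60 in PD-SCC, adjusted p = 0.106). Mrps27, a small subunit protein gene, also differed most in OT15, at 0.81, 0.35 and 2.37 in OT7, OT14 and OT15 (adjusted p = 0.0945). Mrps14 had a larger mean difference than any other small subunit gene (1.47 ± 0.43), but its stages overlapped and it did not pass (adjusted p = 0.0785). Its OT15 WD-SCC value (4.14) was under the bacterial control as well.

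The stage differences within lineages were largest in OT15. The lineage medians over the 73 genes were 0.55, 0.48 and 1.03 in OT7, OT14 and OT15, and 52, 63 and 65 of the 73 differences were above 0. Over all genes 42.5%, 51.2% and 42.8% of the differences were above 0, with medians of -0.08, 0.01 and -0.07. The 78 nuclear genes of the respiratory chain also had their largest median in OT15 (0.80, 0.47 and 0.96 in OT7, OT14 and OT15). OT15 held the largest of the 3 differences for 49 genes, OT7 for 15 and OT14 for 9, which was not counted over all genes. Each OT14 and OT15 difference rests on 1 array per stage. A difference of at least 2 log2 units was seen in 16 genes in OT15 (21.9%), in 2 in OT7 (Mrpl18 and Mrpl9) and in none in OT14. Over all genes the 95th percentile of the difference was 1.70, 1.31 and 1.58 in OT7, OT14 and OT15. The same sign in all 3 lineages was found for 45 genes with PD-SCC higher (61.6%, against 22.2% of all genes) and for 3 with PD-SCC lower (Mrps7, Mrpl55 and Mrpl54; 4.11%, against 29.0%). Within OT7, both PD-SCC arrays were above both WD-SCC arrays for 42 genes (27.8% of all genes) and below both for 8 (37.9% of all genes). All genes include more dim ones: 6561 of 17097 were above the bacterial control on all 8 arrays, against 59 of the 73. The shares of same sign and of separate OT7 arrays were not counted among brighter genes alone.

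The OT15 WD-SCC array had the lowest value of all 8 arrays for 36 of the 73 genes and the highest for none. The next most frequent lowest array was the OT7 WD-SCC array without a number, with 17 genes. The median of the 73 genes on an array was 5.46 to 6.32 in WD-SCC and 6.28 to 6.64 in PD-SCC, so these medians overlapped between the stages by a small margin. Spread between arrays was smaller in PD-SCC for 55 genes, with a median SD of 0.36 against 0.48 in WD-SCC. How often all genes were lowest on each array, or less spread in PD-SCC, was not counted.

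**Figure D3:**
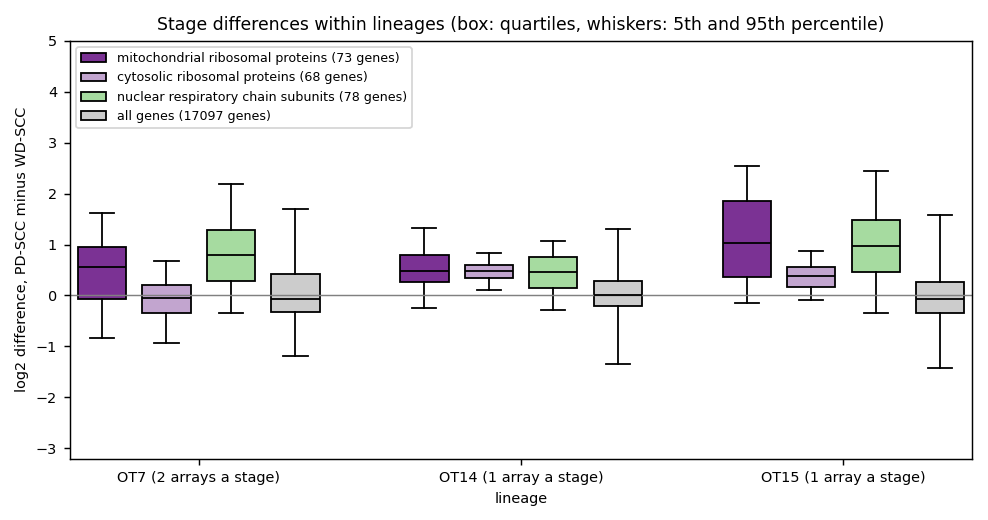
Log2 difference (PD-SCC minus WD-SCC, vertical axis) within each lineage for the 73 mitochondrial ribosomal protein genes, 68 cytosolic ribosomal protein genes, 78 nuclear respiratory chain subunit genes and all 17097 genes; boxes are quartiles with the median and whiskers reach the 5th and 95th percentile over genes. The median of the mitochondrial set is above 0 in each lineage (0.55, 0.48 and 1.03), while that of the cytosolic set is -0.04 in OT7.

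A test of whether the stage effect differed between lineages found none of the 73 genes past an adjusted p of 0.05, nor any gene on the array (0% of all genes; limma F test, with 2 residual degrees of freedom, all from OT7). At an unadjusted p under 0.05 there were 13 of the 73 (17.8%), against 11.9% of all genes. The 3 with the smallest p were Mrpl52, Mrpl17 and Mrpl23. Mrpl52, a large subunit protein gene, read 9.17 and 9.03 (OT7), 9.17 (OT14) and 7.91 (OT15) in WD-SCC and 9.48 and 9.63 (OT7), 10.15 (OT14) and 10.50 (OT15) in PD-SCC. The other 3 WD-SCC arrays lay close together, and the OT15 array was below them by more than 1 log2 unit. The differences were 0.46, 0.98 and 2.59 in OT7, OT14 and OT15 (unadjusted p = 0.00299, adjusted p = 0.207).

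Mrpl17 and Mrpl23, which encode proteins near the exit of the peptide tunnel, had opposite signs in the lineages. Mrpl17 read 8.57 and 8.27 (OT7), 6.80 (OT14) and 7.15 (OT15) in WD-SCC and 6.18 and 6.63 (OT7), 7.30 (OT14) and 8.10 (OT15) in PD-SCC. In OT7 both PD-SCC arrays were below both WD-SCC arrays, and in the other lineages PD-SCC was higher (-2.02, 0.50 and 0.95 in OT7, OT14 and OT15; unadjusted p of the difference between lineages 0.00329, adjusted p = 0.212). Mrpl23 read 7.74 and 8.30 (OT7), 6.22 (OT14) and 6.19 (OT15) in WD-SCC and 6.58 and 6.99 (OT7), 7.77 (OT14) and 7.97 (OT15) in PD-SCC. Its pattern was the same, at -1.23, 1.55 and 1.78 in OT7, OT14 and OT15 (adjusted p = 0.223). Mrps2, named after its values were seen, also had opposite signs, at -1.78, 0.36 and 0.81 in OT7, OT14 and OT15 (adjusted p = 0.378). A difference below 0 in OT7 with both other lineages above 0 was found for 13 genes in all (17.8%), which was not counted over all genes.

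**Figure D4:**
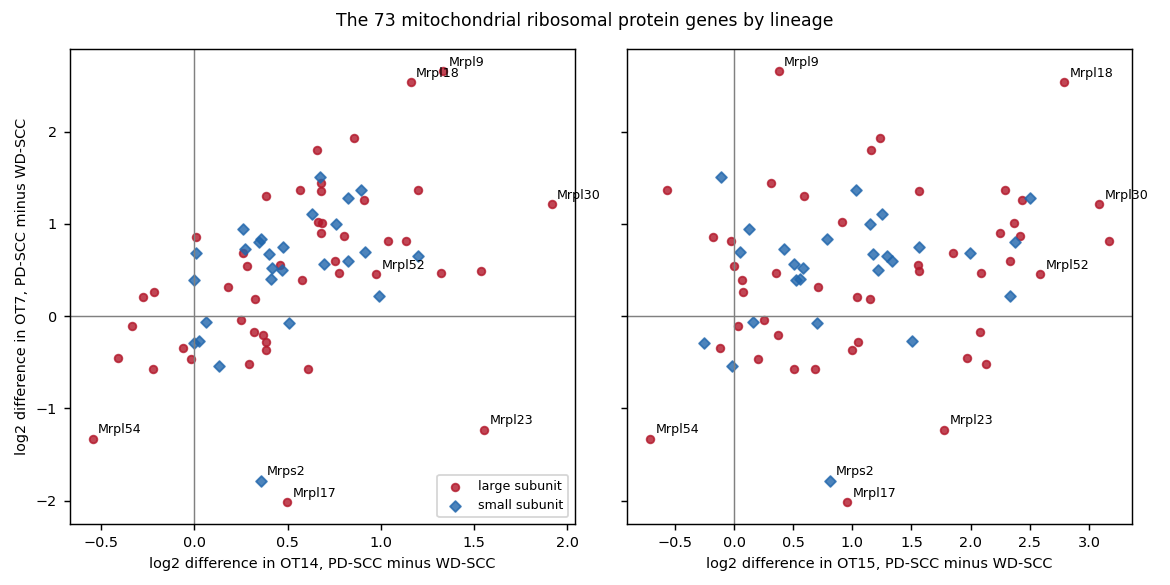
Log2 difference (PD-SCC minus WD-SCC) of each of the 73 genes in OT7 (vertical axis) against that in OT14 (left) and OT15 (right), with large subunit genes as circles and small subunit genes as diamonds. Most points lie in the upper right quadrant; Mrpl17, Mrpl23 and Mrps2 lie below 0 in OT7 alone (-2.02, -1.23 and -1.78), and Mrpl54 is below 0 on both axes.

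Mrpl54, a large subunit protein gene, was the only one of the 73 with every PD-SCC array below every WD-SCC array; it was named after its values were seen. WD-SCC arrays read 6.77 and 5.82 (OT7), 5.70 (OT14) and 6.04 (OT15) and PD-SCC arrays 4.96 and 4.98 (OT7), 5.15 (OT14) and 5.32 (OT15). The difference was -0.98 ± 0.26 and did not pass the threshold (adjusted p = 0.0639). It was past the threshold without a block and under 6 other alternatives. The other 8 genes with a difference below 0 were Mrpl17, Mrps2, Mrps11, Mrpl55, Mrpl14, Mrps7, Mrpl46 and Mrpl47, none with an unadjusted p under 0.05.

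Differences between lineages at both stages were also tested, and none of the 73 genes passed an adjusted p of 0.05 (0% of all genes did; limma F test). At an unadjusted p under 0.05 there were 8 (11.0%), against 7.32% of all genes. The smallest p was that of Mrps10, a conserved small subunit protein gene, which read 4.41 and 4.65 (OT7), 4.63 (OT14) and 5.39 (OT15) in WD-SCC and 4.78 and 5.07 (OT7), 5.04 (OT14) and 5.95 (OT15) in PD-SCC. OT15 was the highest lineage at both stages, and the stage differences were alike (0.40, 0.41 and 0.56 in OT7, OT14 and OT15; adjusted p of the lineage difference 0.396). Mrpl13 was next (adjusted p = 0.554), with OT15 the lowest lineage. Mrps34, a small subunit protein gene, followed (adjusted p = 0.604): it read 4.70 and 4.63 (OT7), 4.59 (OT14) and 4.11 (OT15) in WD-SCC and 4.56 and 4.64 (OT7), 4.65 (OT14) and 4.28 (OT15) in PD-SCC. Its stage difference was 0.02 ± 0.09; OT15 was the lowest lineage at both stages.

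Several genes were described whatever their values, because of a known role. Mrpl12, a stalk protein that also binds the mitochondrial RNA polymerase, read 6.38 and 6.46 (OT7), 5.69 (OT14) and 5.63 (OT15) in WD-SCC and 6.11 and 6.01 (OT7), 6.08 (OT14) and 6.63 (OT15) in PD-SCC. It was lower in PD-SCC in OT7 and higher in the other lineages (-0.37, 0.39 and 1.00 in OT7, OT14 and OT15), for a difference of 0.16 ± 0.25 (adjusted p = 0.678). Mrps12, which encodes the protein at the decoding centre, read 7.39 and 7.35 (OT7), 6.67 (OT14) and 6.99 (OT15) in WD-SCC and 7.50 and 8.27 (OT7), 7.09 (OT14) and 7.58 (OT15) in PD-SCC. PD-SCC was higher within each lineage (0.52, 0.41 and 0.58 in OT7, OT14 and OT15), but the stages overlapped and the gene did not pass (adjusted p = 0.119).

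Mrps18a and Mrps18b are paralogs whose products occupy different places in the ribosome. Mrps18a read 5.96 and 5.70 (OT7), 6.02 (OT14) and 4.99 (OT15) in WD-SCC and 6.24 and 6.78 (OT7), 6.02 (OT14) and 6.99 (OT15) in PD-SCC. OT14 hardly differed between stages (0.01) while OT15 differed by 2.00 (difference 0.84 ± 0.33, adjusted p = 0.151). Mrps18b read 6.90 and 6.68 (OT7), 6.96 (OT14) and 6.35 (OT15) in WD-SCC and 7.39 and 7.19 (OT7), 7.43 (OT14) and 7.56 (OT15) in PD-SCC. All 4 PD-SCC arrays were above the WD-SCC arrays, and the differences were 0.50, 0.47 and 1.22 in OT7, OT14 and OT15. Mrpl44, a large subunit protein related to RNase III, read 4.96 and 4.37 (OT7), 4.38 (OT14) and 4.22 (OT15) in WD-SCC and 4.62 and 4.62 (OT7), 4.64 (OT14) and 4.47 (OT15) in PD-SCC, a difference of 0.11 ± 0.16 (adjusted p = 0.672).

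By probe set mean, which does not rank transcript amounts between genes, the highest 3 of the set were Mrpl52, Mrpl14 and Mrps33 and the lowest 3 were Mrpl47, Mrpl15 and Mrps31. Mrpl14, a conserved large subunit protein gene, read 9.08 and 9.40 (OT7), 9.19 (OT14) and 9.03 (OT15) in WD-SCC and 8.23 and 9.10 (OT7), 8.97 (OT14) and 9.54 (OT15) in PD-SCC. Stages overlapped (-0.22 ± 0.28, adjusted p = 0.619). Mrps33, a small subunit protein gene, read 8.37 and 9.10 (OT7), 7.84 (OT14) and 6.33 (OT15) in WD-SCC and 8.68 and 9.23 (OT7), 8.83 (OT14) and 8.67 (OT15) in PD-SCC. The OT15 WD-SCC array stood more than 1 log2 unit below the rest, and the difference was 0.94 ± 0.41 (adjusted p = 0.183). Mrpl15, a large subunit protein gene near background, read 4.06 and 4.19 (OT7), 3.81 (OT14) and 3.68 (OT15) in WD-SCC and 3.75 and 4.09 (OT7), 4.17 (OT14) and 4.05 (OT15) in PD-SCC (adjusted p = 0.741). Mrpl47, a large subunit protein gene not above the bacterial control on any array, read 3.66 and 3.15 (OT7), 3.66 (OT14) and 3.53 (OT15) in WD-SCC and 3.44 and 3.15 (OT7), 3.33 (OT14) and 3.57 (OT15) in PD-SCC, so no fold is given.

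Other probe sets of the same genes gave a partial check. Of the 73 genes, 35 had 1 probe set and 38 had several, and in 25 of the 38 all probe sets had the same sign of difference. Of the 56 probe sets not used, 41 had the sign of the one used; 14 of the 56 were above the bacterial control on all 8 arrays, and 11 of these 14 had that sign. With all probe sets tested together, 8 of the 56 passed the threshold, each with PD-SCC higher. They were those of Mrpl3, Mrpl11, Mrpl39, Mrpl44, Mrps9 and Mrps23 and both others of Mrpl13, with differences of 0.90 (adjusted p = 0.0242, limma) and 1.11 (0.0239) for Mrpl13. Of the 8, that of Mrpl39 and that of Mrpl13 with the difference of 0.90 were above the bacterial control on all 8 arrays. The others were above it on 4 to 7 arrays, so background limits part of their values. The share of all probe sets that passed was not counted. Mrpl44 was the gene whose probe sets differed most in call: the second one read a difference of 1.55 ± 0.34 (adjusted p = 0.0438) against 0.11 for the one used. No gene had probe sets of opposite sign that were both under an unadjusted p of 0.05. The suffix _s_at or _x_at marks probes that may bind transcripts of other genes. It was on 8 of the 73 probe sets used, among the 11 genes that rose on that of Mrps23 alone, and on 7 of the 56 not used, including the one of Mrpl13 with the difference of 1.11, one of Mrpl30 and the one of Mrpl11 that passed.

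Genes that act with the mitochondrial ribosome were counted in the same fit. Of 5 proteins of the ribosome with other symbols, Ptcd3, a small subunit protein, rose by 0.88 ± 0.14 (adjusted p = 0.0186, limma), and the median difference was 1.43. Dap3, which encodes a GTP-binding small subunit protein, differed by 1.50 ± 0.44 (adjusted p = 0.0778) and Chchd1, another small subunit protein gene, by 1.43 ± 0.45 (adjusted p = 0.0932). Of 23 genes of ribosome assembly and rRNA modification, 4 rose, none fell and the median difference was 0.12. Rbfa, a maturation factor of the small subunit, went from 4.62 ± 0.16 to 5.42 ± 0.13 (SD, n = 4; difference 0.80, adjusted p = 0.00936). Grsf1, an RNA-binding protein of mitochondrial RNA granules, rose by 1.43 ± 0.20 (adjusted p = 0.0125) and Fastkd2, a large subunit assembly factor, was at or under the bacterial control on all WD-SCC arrays and at 4.95 ± 0.95 in PD-SCC (adjusted p = 0.0400).

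Of 9 mitochondrial translation factors, Oxa1l, an insertase that anchors the ribosome at the inner membrane, rose by 1.36 ± 0.27 (adjusted p = 0.0312), and the median was 0.08. The elongation factor genes Tufm (0.77 ± 0.22, adjusted p = 0.0788) and Gfm1 (0.77 ± 0.25, 0.100) did not pass; Gfm1 was at or under the bacterial control on all WD-SCC arrays, so its difference is measured from background. Of 15 mitochondrial aminoacyl-tRNA synthetases, which charge tRNAs with amino acids, none passed (2 at an unadjusted p under 0.05, both higher, limma), with a median of 0.23. Fars2 came nearest by p, at 1.97 ± 0.50 (adjusted p = 0.0593), followed by Wars2 at 0.61 ± 0.16 (0.0596) and Sars2 at 1.17 ± 0.49 (0.165). Fars2 was above the bacterial control on only 2 of 4 WD-SCC arrays, so its difference is partly measured from background. Of 12 genes of mitochondrial DNA maintenance and transcription, Ssbp1, the single-stranded DNA-binding protein of the mitochondrial genome, rose by 1.83 ± 0.25 (adjusted p = 0.0116). The median of these was 0.21, and neither Polrmt, the mitochondrial RNA polymerase (0.50 ± 0.13, adjusted p = 0.0663), nor Top1mt, a mitochondrial topoisomerase (-0.29 ± 0.09, adjusted p = 0.0987), passed. Polrmt was at or under the bacterial control on all 4 WD-SCC and on 2 of 4 PD-SCC arrays, so its difference is measured from background.

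Of 10 regulators of nuclear genes for mitochondrial proteins, Esrra, the estrogen-related receptor alpha, was the only one past the threshold and fell by 1.09 ± 0.12 (adjusted p = 0.00704), by similar amounts in OT7, OT14 and OT15 (-1.15, -1.03 and -1.02). Tfe3, a lysosomal and metabolic transcription factor, differed by 0.45 ± 0.11 (adjusted p = 0.0529). Nrf1 differed by 0.06 ± 0.22 (adjusted p = 0.853), Gabpa, the DNA-binding subunit of GABP, by -0.40 ± 0.15 (0.134), Tfam, the packaging protein of mitochondrial DNA, by 0.37 ± 0.15 (0.153) and Myc by 0.62 ± 0.26 (0.168). These are transcript levels of the regulators and give no measure of their activity.

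The nuclear genes of the respiratory chain, whose complexes also need the products of the mitochondrial ribosome, had a similar median and more calls. Of these 78 genes 33 rose (42.3%, against 7.78% of all genes), none fell and the median was 0.77. This count was 8 without either OT7 PD-SCC array, 11 without OT15, 13 without the OT7 WD-SCC array numbered 2, 21 without the one with no number, 12 with cyclic loess and 1 with OT7 arrays averaged. The share of all genes that rose was lower in these fits too. It was 3.21% and 3.24% without the OT7 PD-SCC arrays numbered 1 and 2, 4.92% without OT15 and 1.18% with OT7 arrays averaged. The remaining fits gave 4.36% to 5.60%. Of 68 cytosolic ribosomal protein genes 8 rose (11.8%) and none fell. The count was 1 to 5 when any array was left out. Scaling to the 75th percentile or either filter on brightness gave 1. Cyclic loess gave 2, a trended and robust prior 5 and averaged OT7 arrays none. The cytosolic median was 0.17 (-0.15 with cyclic loess), with lineage medians of -0.04, 0.48 and 0.38 in OT7, OT14 and OT15. In OT14 the cytosolic and the mitochondrial ribosomal proteins thus had medians of 0.48 each, and in OT7 0.55 of the mitochondrial stood against -0.04 of the cytosolic. Differences between these lists were not tested, and the lists share all 8 arrays.

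Other measures moved with the stage as well. Of 19 cell cycle markers 16 rose and none fell (median 2.19), and their summed level was 10.14 to 11.24 in WD-SCC and 12.15 to 12.94 in PD-SCC on the log2 scale. Of 14 keratinocyte markers 11 fell (summed 13.22 to 13.87 and 8.09 to 9.89). Haematopoietic markers fell in 5 of 16 (summed 10.85 to 12.64 and 7.89 to 8.42). Among them were S100a9 (10.55 ± 1.37 in WD-SCC, 4.60 ± 0.77 in PD-SCC) and S100a8 (10.04 ± 1.46 and 3.89 ± 0.78), which stressed keratinocytes also express. The sums add levels before the log2, so these high values weigh heavily in the WD-SCC sums. The defining gene Ptprc was at or under the bacterial control on every array. Endothelial markers fell in 4 of 12 (summed 8.41 to 11.04 and 7.67 to 9.16), where Pecam1 was above the control on 7 arrays and Cdh5 on 8. Of 13 fibroblast markers 1 rose and 1 fell (summed 10.61 to 13.28 and 11.96 to 12.65), and Col1a1 and Dcn were above the control on all arrays. A control probe set group for nonspecific binding with 25 G and C bases read 8.39 ± 0.26 on WD-SCC and 6.94 ± 0.19 on PD-SCC arrays (SD, n = 4). The 3′ minus 5′ difference of the Gapdh control, a sign of RNA integrity, was -0.53 to -0.04 in WD-SCC and -0.41 to -0.24 in PD-SCC. The part of these measures in the differences of the mitochondrial ribosomal protein genes was not tested.

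The promoter windows were described for the whole set. In the 250 bases before the start, searched on both strands with matches that may overlap, the NRF1 half-site TGCGCA was found in 17 of 71 windows of the 65 genes (23.9%), against 8.93% of 17065 windows of genes on the array and 6.43% of all 32851 windows. The ETS core CCGGAA was found in 25 (35.2%, against 16.7% and 12.0%). The YY1 core AAGATGG was in 6 (8.45%, against 4.26% and 4.49%), and the E-box CACGTG was also in 6 (8.45%, against 7.38% and 6.02%). A gene with several windows counts for each, and the 6 E-box windows were those of Mrpl2, Mrpl20, Mrpl36 and Mrpl37 alone. The median G and C content was 58.8%, against 57.6% and 52.4%. A match is a stretch of letters and no measure of binding.

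Of the 11 genes that rose, 9 had a window. The ETS core was in those of Mrpl10, Mrpl18, Mrpl30, Mrps22 and Mrps31, and the NRF1 half-site in those of Mrpl10, Mrps17 and Mrps23. Mrpl24 and Mrps30 had neither, nor the YY1 core or the E-box. The window of Mrpl17, whose signs were opposite in the lineages, held both the ETS core and the NRF1 half-site.

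Start sites of opposite strands that point away from each other within 500 bases were found for 22 of the 65 genes (33.8%), against 1967 of 13605 genes on the array with a window (14.5%). Of 20 partners that were measured, 3 rose and 1 fell, where 7.78% and 4.81% of all genes did, and their median was 0.07. Mrps11 and Mrpl46 are among the 20, each as the partner of the other. Tcp1, a subunit of the cytosolic chaperonin, starts 238 bases from Mrpl18 and rose with it, by 1.09 (adjusted p = 0.0243, limma). Mitd1, a gene of cytokinesis 66 bases from Mrpl30, differed by 0.70 and did not pass (adjusted p = 0.297). Ndufb5, a complex I subunit gene, starts 308 bases from Mrpl47 and rose by 1.88 (adjusted p = 0.0270), while Mrpl47 was at background. Eme1, a DNA repair endonuclease gene 48 bases from Mrpl27, rose by 1.15 (adjusted p = 0.0439) where Mrpl27 differed by 0.22 (adjusted p = 0.672). Tmem63b, an ion channel gene 131 bases from Mrpl14, fell by 0.46 (adjusted p = 0.0356). Mrps11 and Mrpl46, which start 42 bases apart, both differed by less than their error allows to call (-0.24 and -0.19, adjusted p = 0.408 and 0.496).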

How the data were processed

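Per the submitters' processing notes, the deposited log2 values come from the affy package and RMA, a method that subtracts background, gives all arrays the same distribution and combines the probes of a probe set. Software versions, the probe set definition and the arrays normalised as one batch are not stated in the sources used here. The array has 45141 probe sets. The platform annotation gave 1 gene symbol for 28898 of them, several for 551 and none for 15588, and 104 were controls. Symbols were updated by Entrez number through the RefSeq table of GRCm38.p6, which held 99.1% of the 17097 genes. Scanner files were not used here, and the number of arrays limits the precision.

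Stage was fitted with limma 3.58.1 in R 4.3.3 (lmFit and eBayes, two-sided, lineage as a fixed block, 4 residual degrees of freedom), with Benjamini-Hochberg adjustment over all genes and a threshold of 0.05. A second fit had 1 coefficient per lineage and stage, with 2 residual degrees of freedom from OT7. The labels number replicates anew in each lineage and stage, and 1 WD-SCC array of OT7 is unnumbered, so lineage, not number, pairs the arrays. Correlations of the deviations from stage means, across genes and between stages, were -0.04 in OT7, 0.02 in OT14 and 0.06 in OT15, so the values show little of the pairing. Plots used Python 3.11.15 with matplotlib 3.10.9. On simulated data with independent errors on all arrays, the stage fit recovered 43% of changes of 1 log2 unit and 85% of changes of 2. Of its calls 3.76% were false. An error shared by the OT7 arrays of a stage was not simulated.

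The rule for named genes took the 6 largest rises and 6 largest falls among genes past the threshold whose sign was the same in all lineages, the 3 highest and 3 lowest means, the 3 smallest p of each lineage test, and Mrpl12, Mrps12, Mrps18a, Mrps18b and Mrpl44 whatever their values. Of each related list it took up to 3 genes with the smallest p, and Tfam, Nrf1, Gabpa and Myc. Genes named beyond it were chosen with their values in view. The members, lists and motifs were chosen with earlier results of these data known.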

Additional observations from a re-analysis of the deposited data

Results flagged for a closer look

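In groups of 4 arrays, 3 of 54 tested had 1 array farther from the rest than Dixon's 95% critical value allows. The groups were those of the genes named by rule and of array medians. Chance gives about 1 in 20 where genes are not chosen by their values. Some of these, Mrpl52 among them, were named for a small p between lineages, so that rate does not hold for them. All 3 were OT15 arrays. Mrpl52 read 7.91 on the OT15 WD-SCC array, and the other 3 WD-SCC arrays read 9.03 to 9.17. Mrpl12 read 6.63 on the OT15 PD-SCC array, above the other PD-SCC arrays at 6.01 to 6.11. Mrpl44 read 4.47 on the same array, below the others at 4.62 to 4.64, a gap smaller than the spread of its WD-SCC arrays (SD 0.33).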

How the results depend on the processing

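The median difference of the set stayed between 0.46 and 0.88 under all alternatives, against 0.67, and 54 to 65 of the 73 differences were above 0 in fits of all genes. The count of genes that rose was less stable. It was 15 (20.5%) with no replicate block, that is without the lineage pairing, where 7.31% of all genes rose. With lineage as a random block it was also 15, against 7.61% of all genes, and each fit shared 10 genes with the 11. It was 0 with OT7 arrays averaged (1.18% of all genes). When the brighter stage had to average at least 6 it was 22 of 49 (44.9%, against 28.4%). Averaging probe sets per gene gave 20 (27.4%, against 8.24%) and scaling to the 75th percentile gave 10 (13.7%, against 6.73%). There were 5 with cyclic loess (6.85%, against 4.67%), 8 with a trended and robust prior (11.0%, against 7.87%) and 13 with array weights (17.8%, against 7.73%). A minimum average of 5 over the 8 arrays, chosen after seeing the data, gave 19 of 61 (31.1%, against 22.7% of all genes kept). Leaving out each array in turn gave 3 to 8, with medians of 0.55 to 0.67. It was 8 (11.0%) without either OT7 WD-SCC array, against 5.60% of all genes without the unnumbered one and 4.36% without the other. Without the OT7 PD-SCC arrays numbered 1 and 2 it was 3 and 4 (4.11% and 5.48%, against 3.21% and 3.24%). Leaving out any OT14 or OT15 array, which takes the whole lineage out of the stage effect, gave 5 (6.85%, against 4.52% and 4.92%). The only gene called lower under any alternative was Mrpl54, so that the count of genes that fell was 1 instead of 0 under 7 alternatives (no block, random block, array weights, mean of probe sets, both filters and leaving out the OT7 WD-SCC array with no number); leaving out arrays gave 0 to 1. No gene passed the tests between lineages under the 4 alternatives run on them. Of the calls in named genes, Mrpl18 was lost under 5 of 18 alternatives (adjusted p 0.00426 to 0.0822), Mrps17 under 5, Mrpl24 under 6, Mrpl4 and Mrpl30 under 9 each, Mrpl10 and Mrps23 under 11 each, Mrps31 under 11 of 16 and Mrps22 under 12 of 16. Leaving out either array of OT14, or either array of OT15, gives the same stage fit, so in these tallies such a loss counts for both arrays. The median of the cytosolic ribosomal proteins was -0.15 with cyclic loess, against 0.17. Some differences near 0 changed sign, none of them past the threshold: Mrpl15 (-0.066), Mrps34 (-0.13) and Mrpl44 (-0.045) after scaling to the 75th percentile, and Mrpl23 (-0.15), Mrps34 (-0.0037) and Mrpl12 (-0.12) with cyclic loess. With single arrays left out, Mrpl15 ranged from -0.012 to 0.21, Mrpl23 from -0.30 to 0.62, Mrps34 from -0.021 to 0.058, Mrpl12 from -0.11 to 0.29 and Mrpl14 from -0.46 to 0.031. The cause of these changes was not tested. Genes near the bacterial controls, such as Mrps30, Mrps31 and Mrpl15, have WD-SCC levels that background limits.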
